A study of Mus musculus with 9 samples.

Results

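Genes of the Wnt pathway were examined in MS1 cells, an endothelial line from the mouse pancreas. The set took every Wnt, Frizzled, Sfrp, Dkk, Axin, Dvl, R-spondin, Tcf7-type, Lgr4 to Lgr6, Lrp5, Lrp6, Nkd and Ror symbol in a gene table, together with Lef1, Ryk, Rnf43, Znrf3, Apcdd1, Porcn, Ctnnb1 and Apc. This symbol rule found 51 of the 17565 genes, and Lgr5, Ror2 and Rnf43 were not analysed here. Messenger RNA was sequenced from 3 samples in each of 3 groups, 9 libraries in all. TAZ-CAMTA1 cells stably carried pCDH-TAZ-CAMTA1, a lentiviral vector for a fusion of the transcriptional co-activator TAZ with CAMTA1. TAZ4A cells carried pCDH-TAZS4A, a vector for TAZ with serines changed to alanine, and Ctrl cells carried the pCDH-puro backbone. All 3 groups therefore share the cell line and the vector family, and the labels do not say whether a group is 1 clone or a pool, or whether its samples are separate cultures. The p-values below measure the spread between these samples, which may be technical.

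Wnt proteins are secreted ligands that the enzyme Porcn makes active by adding a lipid. On the receiving cell they bind a Frizzled receptor together with Lrp5 or Lrp6, and Dishevelled proteins (Dvl) carry the signal to a complex of Axin and Apc that otherwise marks beta-catenin (Ctnnb1) for destruction. Beta-catenin that escapes enters the nucleus and acts through DNA-binding proteins of the TCF/LEF family. A further branch works without beta-catenin, through Ror, Ryk and planar cell polarity proteins. In blood vessels the pathway is known for building the barrier of brain and retinal capillaries, where Wnt7a, Wnt7b and Fzd4 take part.

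Libraries held 21966004 to 34224715 reads assigned to genes. TAZ-CAMTA1 replicate 2 stood apart: its log2 values correlated with those of its own group at 0.962 to 0.963, against at least 0.997 between replicates elsewhere, and 3.99% of its reads fell on genes of ribosomal proteins, where the remaining libraries had 1.88% to 2.16%. Every count of changed members is therefore given with and without it. Wwtr1, the mouse gene of TAZ, averaged 437 ± 94.4 CPM in TAZ-CAMTA1, 325 ± 8.70 CPM in TAZ4A and 551 ± 17.6 CPM in Ctrl libraries (SD, n = 3 each). Every library of both construct groups was below every Ctrl library, so the level of Wwtr1 shows neither construct. The TAZ4A group, for which no other construct gene could be looked up, is called TAZ4A-labelled below. TAZ4A in the name of a comparison means these labelled libraries. Whether reads of a construct are counted on the mouse gene is not given in the sources used here. Camta1 averaged 13.1 ± 0.579 CPM in TAZ-CAMTA1, 4.91 ± 0.253 CPM in TAZ4A-labelled and 4.05 ± 0.923 CPM in Ctrl libraries. Of 12 endothelial markers, 11 exceeded 1 CPM in each group and Cldn5 was at or near 0. The markers summed to 11177 to 12820 CPM in TAZ-CAMTA1, 7624 to 7872 CPM in TAZ4A-labelled and 11698 to 11931 CPM in Ctrl libraries.

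Levels are given in CPM, gene counts divided by the library sizes as the authors scaled them. A gene was tested where it reached 0.5 CPM in at least 3 libraries, which 12350 genes and 29 of the 51 members did. Changes are log2 fold changes of CPM + 0.5 with their standard error (SE), from limma across all 12350 genes, and a gene is called when its adjusted p is under 0.05. The 29 members include genes that passed the level filter in only 1 group, so their counts and medians describe them and carry no test of the set. Wnt7a, Wnt7b and Axin2 passed it only through the TAZ4A-labelled libraries. Their p-values in comparisons with that group are therefore descriptions and add no support. The same holds for genes of the later lists that passed it through only 1 group. As the comparisons share groups, their values are set side by side and overlap between them is not read as support. Where a gene is said to change in both groups against Ctrl, the shared Ctrl libraries make that agreement partly built in.

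In TAZ4A-labelled against Ctrl libraries, the ligands Wnt7a and Wnt7b, the R-spondin receptor Lgr6, Axin2 and Nkd2 rose, while Fzd6, Fzd7, Dvl1, Tcf7l1, Tcf7l2 and Ctnnb1 fell. In bulk RNA, fewer cells with a gene and less RNA of it per cell cannot be told apart. The 5 rises were 17.2% of the tested members, where 13.2% of all tested genes rose, and the 6 falls were 20.7%, where 11.7% of all tested genes fell. Without TAZ-CAMTA1 replicate 2, which enters only through the shared estimate of the spread, 10 members rose (34.5%) and 10 fell (34.5%), beside 28.1% and 30.3% of all genes. The median log2 fold change was 0.04 over the tested members and -0.01 over all genes. Scaling every library to the same sum changed the split to 7 rises and 4 falls, and deposited TPM values, which are scaled for length, gave 4 and 3. Over all genes, 1630 rose and 1447 fell, and with equal library sums 1959 rose and 1108 fell. Leaving out Ctrl replicate 1 or 3, or TAZ4A replicate 1 or 3, left 3 rises, and leaving out any Ctrl or TAZ4A library left 4 falls.

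In TAZ-CAMTA1 against Ctrl libraries, Porcn, Lgr6, Fzd2 and Wnt9a rose, and Fzd6, Dkk2, Wnt5a, Lgr4, Znrf3 and Fzd5 fell. The 4 rises were 13.8% of the tested members, with 16.8% of all genes rising, and the 6 falls were 20.7%, with 15.3% of all genes falling. Leaving out TAZ-CAMTA1 replicate 2, the counts were 9 rises (31.0%) and 8 falls (27.6%), beside 28.5% and 32.3% of all genes. The medians were -0.09 over the members and -0.03 over all genes. Leaving out Ctrl replicate 2 or 3 left 2 rises, and leaving out Ctrl replicate 3 left 3 falls.

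In TAZ-CAMTA1 against TAZ4A-labelled libraries, Wnt9a, Porcn, Tcf7l1, Dvl1, Ctnnb1 and Fzd7 were higher, and Wnt5a, Wnt7a, Wnt7b, Fzd6, Fzd5, Lgr4, Dkk2, Znrf3 and Axin1 were lower. The 6 higher members were 20.7% of those tested, with 19.4% of all genes higher, and the 9 lower ones were 31.0%, with 18.5% of all genes lower. With TAZ-CAMTA1 replicate 2 removed, there were 10 higher (34.5%) and 12 lower (41.4%) members, beside 30.8% and 32.2% of all genes. The medians were -0.26 over the members and -0.02 over all genes. On deposited TPM values 4 members were higher and 11 lower. Leaving out TAZ4A replicate 1 gave 4 higher and 6 lower members. All 36 calls over the 3 comparisons were kept without TAZ-CAMTA1 replicate 2.

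**Figure D1:**
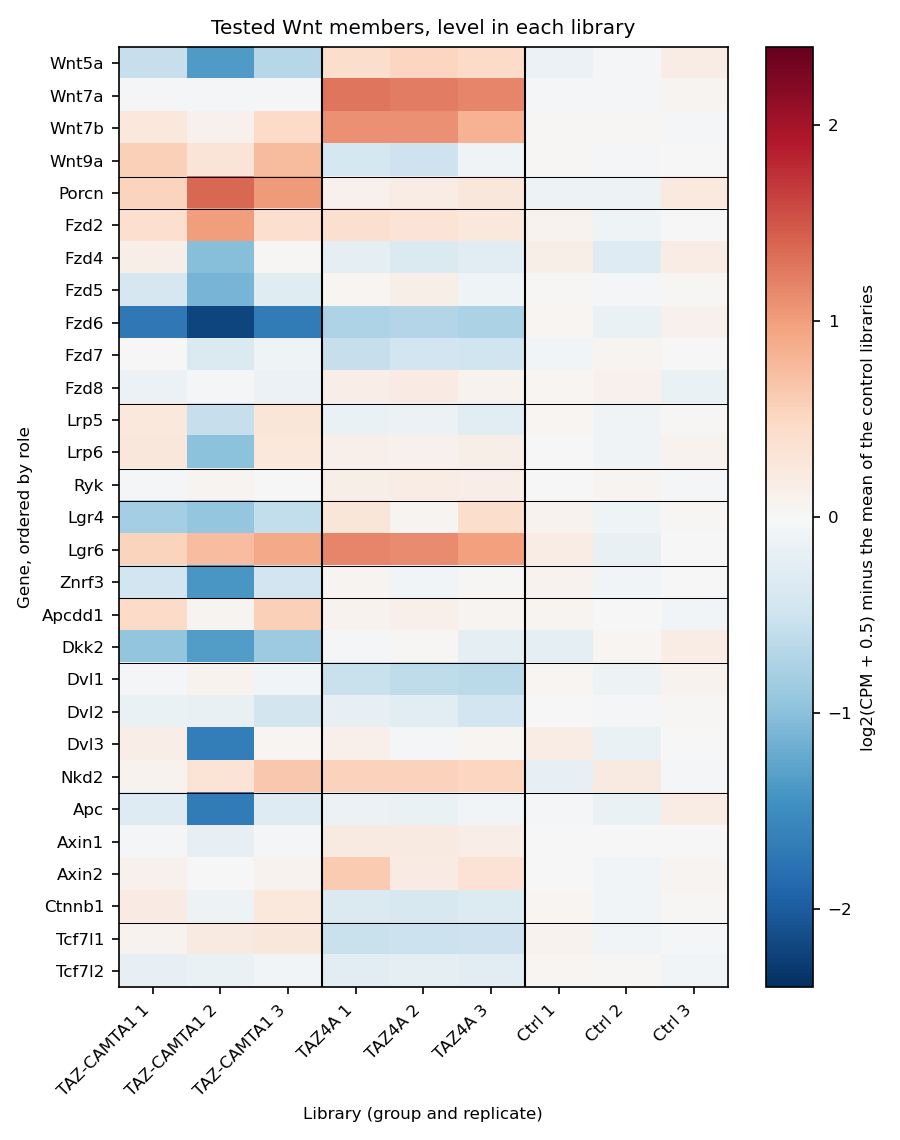
Level of the 29 tested members (rows, by role) in each of the 9 libraries (columns), as log2(CPM + 0.5) minus the mean of the Ctrl libraries; red is above that mean and blue below it. The Wnt7a, Wnt7b and Lgr6 rows are red in all TAZ4A libraries, the Fzd6 row is blue in all TAZ-CAMTA1 and TAZ4A libraries, and TAZ-CAMTA1 replicate 2 is bluer than its group in Dvl3, Apc, Lrp6 and Fzd4.

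**Figure D2:**
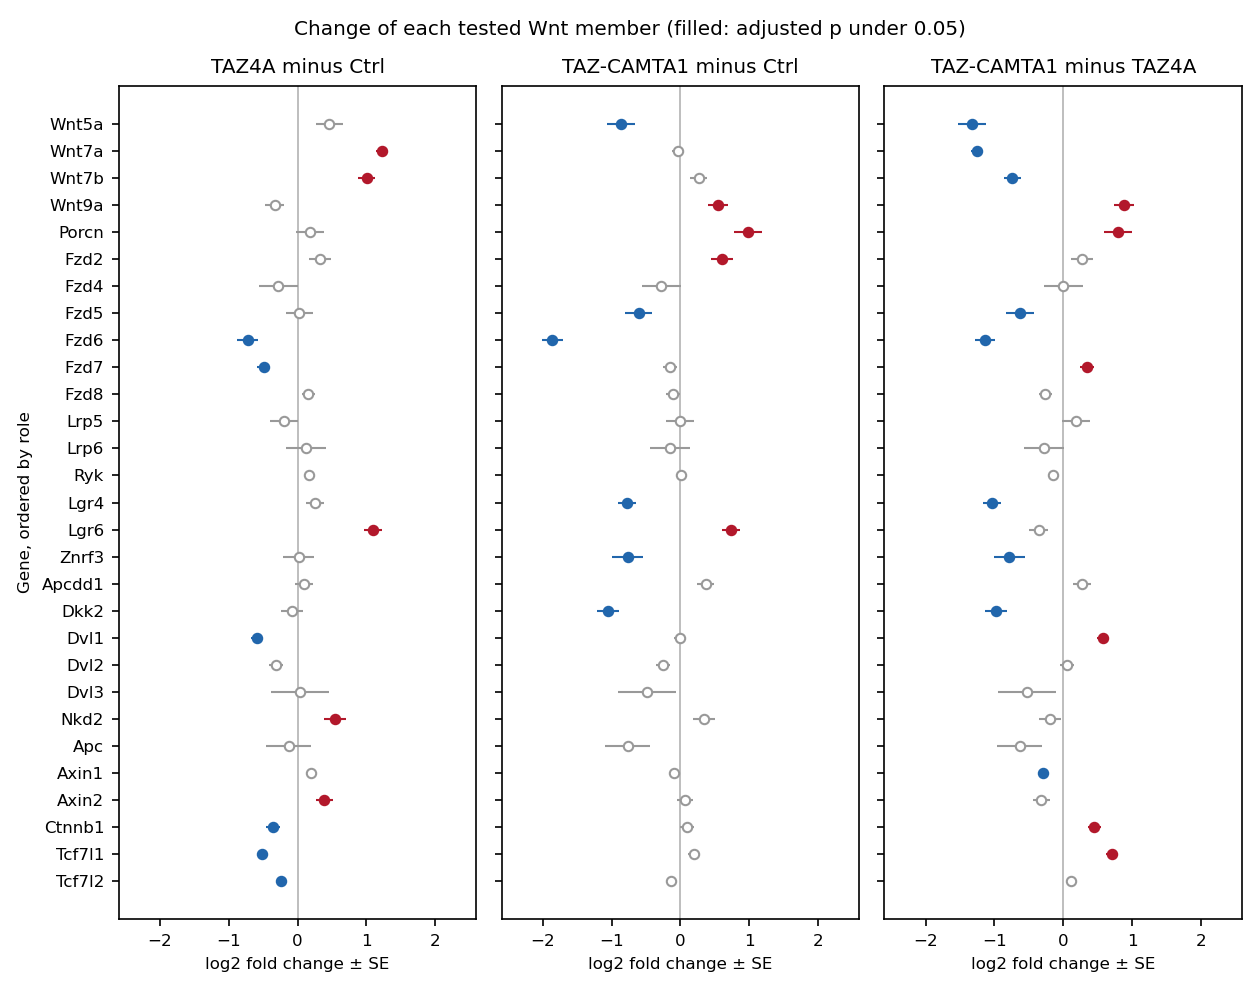
Log2 fold change and SE of each tested member in the 3 comparisons (panels; x axis, log2 units), with called members filled. Fzd6 has log2 fold changes of -0.73, -1.86 and -1.13, and the open symbols with wide bars include Dvl3, Apc, Lrp6 and Fzd4.

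Among the 15 ligand genes, 4 were tested. Wnt5a, on mouse chromosome 14 (mm10, chr14:28505473-28525515), encodes a ligand that mostly signals without beta-catenin. It had 8.12, 4.37 and 7.37 CPM in TAZ-CAMTA1 replicates 1 to 3, 16.3, 17.5 and 16.7 CPM in TAZ4A-labelled replicates, and 10.9, 11.7 and 13.7 CPM in Ctrl replicates. The 3 groups did not overlap, with TAZ4A-labelled libraries highest and TAZ-CAMTA1 libraries lowest. Its log2 fold change was -0.86 ± 0.20 for TAZ-CAMTA1 against Ctrl (limma adjusted p = 0.0118) and -1.33 ± 0.20 for TAZ-CAMTA1 against TAZ4A (limma adjusted p = 0.00117). TAZ4A against Ctrl gave 0.46 ± 0.20 (limma adjusted p = 0.138), which passed without TAZ-CAMTA1 replicate 2 (limma adjusted p = 0.000165). The fall against Ctrl missed the threshold without Ctrl replicate 3 or in a fit of the 6 libraries alone, with adjusted p up to 0.0516.

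Wnt9a (chr11:59306930-59333552), a ligand that in zebrafish acts in the emergence of blood stem cells, had 7.87, 6.55 and 9.07 CPM in TAZ-CAMTA1, 3.75, 3.51 and 4.82 CPM in TAZ4A-labelled, and 5.29, 5.08 and 5.11 CPM in Ctrl libraries. TAZ-CAMTA1 libraries lay above all others. On the log2 scale the change was 0.88 ± 0.14 against TAZ4A (limma adjusted p = 0.00170) and 0.55 ± 0.14 against Ctrl (limma adjusted p = 0.0199). The call against Ctrl was lost without any one Ctrl library, without TAZ-CAMTA1 replicate 3, with quantile normalization and on TPM values (adjusted p up to 0.0934). Wnt9a was also called lower in TAZ4A than in Ctrl without TAZ-CAMTA1 replicate 2 (-0.33, limma adjusted p = 0.0145).

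Wnt7a (chr6:91363983-91411369) and Wnt7b (chr15:85535437-85581821) encode the ligands that neural tissue sends to growing brain vessels. Wnt7a had 0, 0 and 0 reads in TAZ-CAMTA1 replicates, 24, 24 and 21 reads in TAZ4A-labelled replicates, and 0, 0 and 1 read in Ctrl replicates. Its TAZ4A-labelled levels were 0.743, 0.702 and 0.645 CPM. The 69 TAZ4A-labelled reads against 1 Ctrl read gave a depth-adjusted ratio of 60.5, with a 95% counting interval of 10.5 to 2425 (limma adjusted p = 1.63e-05, higher in 3 of 3 libraries). TAZ-CAMTA1 was at least 6.45-fold lower than TAZ4A-labelled, taking 3 reads per library as the limit that a count of 0 allows (limma adjusted p = 1.48e-05). As Wnt7a passed the level filter only through the TAZ4A-labelled libraries, these p-values are descriptions. The ratio and limit were taken because 1 group had many reads and another few, so they carry no test. They cover counting error only. For 70 gene reads, 1 read crossed an annotated Wnt7a splice junction, 1.43 per 100 gene reads. The median of 29 members with junction reads was 14.2 per 100. Fzd5 and Fzd4 were lower still, at 0.207 and 0.892 per 100, and Wnt9a had 1.93. A low share was therefore not particular to Wnt7a.

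Wnt7b had 0.463, 0.369 and 0.610 CPM in TAZ-CAMTA1, 1.24, 1.23 and 0.951 CPM in TAZ4A-labelled, and 0.325, 0.329 and 0.282 CPM in Ctrl libraries. All 3 groups were separate, in the order TAZ4A-labelled, TAZ-CAMTA1 and Ctrl. The fitted change on the log2 scale was 1.01 ± 0.12 for TAZ4A against Ctrl (limma adjusted p = 0.000393) and -0.74 ± 0.12 for TAZ-CAMTA1 against TAZ4A (limma adjusted p = 0.00176). TAZ-CAMTA1 against Ctrl gave 0.27 ± 0.12 and was not called (limma adjusted p = 0.131). Per length, Wnt7b and Wnt7a stayed minor ligands, at 0.6498 and 0.552 TPM in TAZ4A-labelled libraries.

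**Figure D3:**
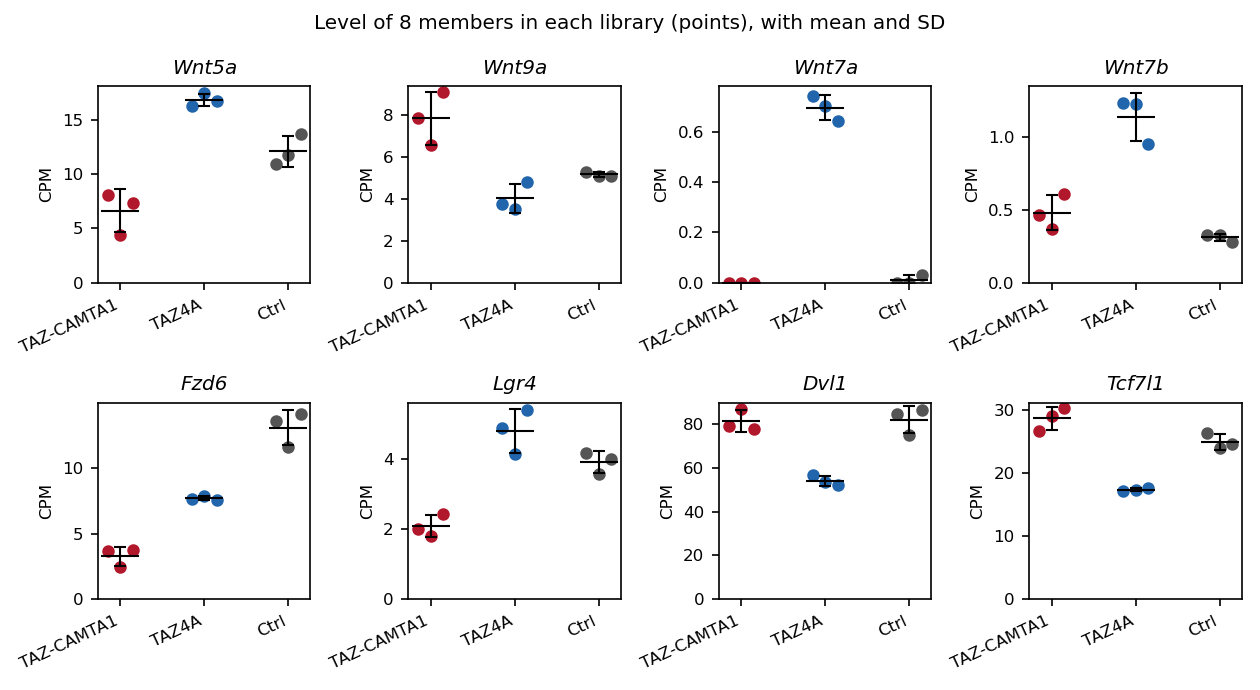
CPM of 8 members in each library (points), with the group mean (bar) and SD; groups run TAZ-CAMTA1, TAZ4A, Ctrl in every panel and each y axis starts at 0. Wnt7a is at 0 in all TAZ-CAMTA1 libraries and at 0.645 to 0.743 CPM in TAZ4A libraries, and Dvl1 and Tcf7l1 are lower in TAZ4A libraries than in both other groups.

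The make-up of the ligand pool followed from these levels. Of the summed TPM of the 15 ligand genes, Wnt9a made up 57.9% ± 4.56 in TAZ-CAMTA1, 21.4% ± 3.37 in TAZ4A-labelled and 35.0% ± 2.81 in Ctrl libraries (SD, n = 3 each). Wnt5a made up 36.4% ± 5.16, 68.0% ± 1.82 and 62.0% ± 3.17 in TAZ-CAMTA1, TAZ4A-labelled and Ctrl libraries. In TAZ-CAMTA1 libraries Wnt9a thus had the larger share, and in both other groups Wnt5a did. Summed ligand TPM was 9.77 ± 2.97 in TAZ-CAMTA1, 14.3 ± 0.499 in TAZ4A-labelled and 10.9 ± 0.894 in Ctrl libraries. No test was made on these shares, which rest on the same reads as the gene values.

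**Figure D4:**
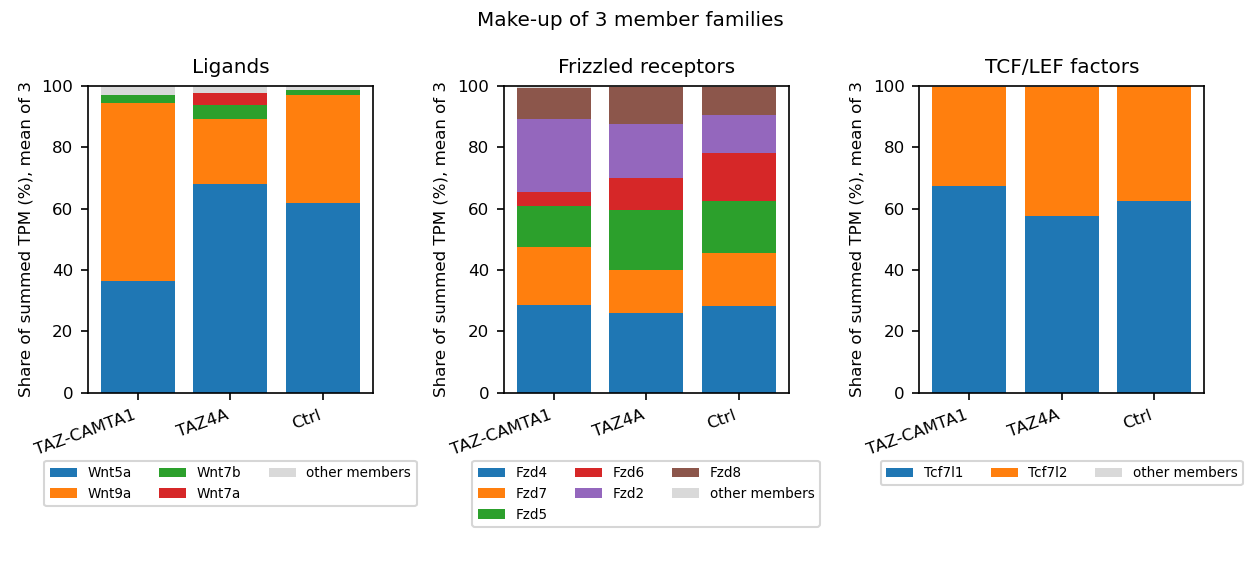
Mean share (%) of the summed TPM of the ligand, Frizzled and TCF/LEF genes taken by each gene, in TAZ-CAMTA1, TAZ4A and Ctrl libraries (mean of 3 libraries each); grey is the rest of the family. Wnt9a has 57.9% of ligand TPM in TAZ-CAMTA1, against 21.4% in TAZ4A and 35.0% in Ctrl libraries, and Fzd6 has 4.63%, 10.4% and 15.6% of Frizzled TPM in the same order.

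Porcn (chrX:8193850-8206525), the acyltransferase that all lipid-modified Wnt ligands pass through, had 1.39, 2.85 and 2.14 CPM in TAZ-CAMTA1, 0.898, 0.965 and 1.07 CPM in TAZ4A-labelled, and 0.696, 0.688 and 1.03 CPM in Ctrl libraries. TAZ-CAMTA1 libraries were the highest 3 of the 9, and TAZ-CAMTA1 replicate 2 was the highest of all. As a log2 fold change this was 0.98 ± 0.20 against Ctrl (limma adjusted p = 0.00721) and 0.79 ± 0.20 against TAZ4A (limma adjusted p = 0.0162). Without TAZ-CAMTA1 replicate 2 these were 0.78 (limma adjusted p = 0.000842) and 0.60 (limma adjusted p = 0.00603). The call against TAZ4A was lost without TAZ4A replicate 1 or 2 (adjusted p up to 0.0578).

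Lgr4 and Lgr6 are receptors of R-spondins, secreted proteins that strengthen Wnt signalling by taking the ubiquitin ligase Znrf3, which removes Frizzled from the surface, out of action. The sequence before the start site of each of these receptor genes is shown because they moved apart in TAZ-CAMTA1 cells. The 250 bases come from RefSeq on GRCm38.p6, chr2:109917397-109917646 on the plus strand for Lgr4 and chr1:135105277-135105526 on the minus strand for Lgr6, and capitals mark CATTCC, the reverse complement of the TEAD core GGAATG.
Lgr4: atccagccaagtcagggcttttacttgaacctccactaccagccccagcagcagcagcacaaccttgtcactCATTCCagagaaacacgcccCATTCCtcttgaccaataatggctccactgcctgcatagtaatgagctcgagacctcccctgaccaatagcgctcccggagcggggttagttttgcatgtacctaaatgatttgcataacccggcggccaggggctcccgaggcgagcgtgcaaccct
Lgr6: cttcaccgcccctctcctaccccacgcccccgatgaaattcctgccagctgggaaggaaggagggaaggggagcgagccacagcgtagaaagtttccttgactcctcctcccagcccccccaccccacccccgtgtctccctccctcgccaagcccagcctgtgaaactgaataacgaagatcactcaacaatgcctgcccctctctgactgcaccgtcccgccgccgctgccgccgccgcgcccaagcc

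Both strands of the 300-base RefSeq windows, 250 bases before to 50 after each start, were searched for GGAATG, the core bound by TEAD proteins, and for ATCAAAG, the core bound by TCF/LEF proteins, motifs that do not contain one another. GGAATG was present in 14.7% of 32851 windows and in 3 of the 43 windows of members, and ATCAAAG was present in 3.73% of all windows and in 2 of the 43. A window existed for 34 of the 51 members. Lgr4 held the TEAD core at positions -178 and -158 from the start site, Dvl2 at -232 and Wnt5b at 14, and the TCF/LEF core was at -51 in Wnt11 and -71 in Wnt5b. Neither motif was in the Lgr6 window. A match is a description of letters and does not show binding.

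Lgr4 (chr2:109917647-110014257) had 2.01, 1.81 and 2.44 CPM in TAZ-CAMTA1, 4.89, 4.15 and 5.40 CPM in TAZ4A-labelled, and 4.18, 3.59 and 4.01 CPM in Ctrl libraries. All TAZ-CAMTA1 libraries were below all others, and TAZ4A-labelled and Ctrl libraries overlapped. The log2 fold change was -0.78 ± 0.13 against Ctrl (limma adjusted p = 0.00235) and -1.04 ± 0.13 against TAZ4A (limma adjusted p = 0.000397), and both calls held in all 22 alternatives.

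Lgr6 (chr1:134986353-135105276) had 0.864, 1.07 and 1.26 CPM in TAZ-CAMTA1, 1.61, 1.55 and 1.35 CPM in TAZ4A-labelled, and 0.557, 0.329 and 0.439 CPM in Ctrl libraries. The Ctrl libraries were lowest, and the levels rest on 89, 149 and 37 reads in TAZ-CAMTA1, TAZ4A-labelled and Ctrl libraries. Its log2 fold change was 1.09 ± 0.13 for TAZ4A against Ctrl (limma adjusted p = 0.000424) and 0.73 ± 0.13 for TAZ-CAMTA1 against Ctrl (limma adjusted p = 0.00375). TAZ-CAMTA1 against TAZ4A gave -0.36 ± 0.13 and was not called (limma adjusted p = 0.0643), although the libraries did not overlap.

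Znrf3 (chr11:5276329-5444847) had 11.3, 5.68 and 11.3 CPM in TAZ-CAMTA1, 16.5, 15.0 and 16.1 CPM in TAZ4A-labelled, and 16.7, 14.9 and 15.5 CPM in Ctrl libraries. TAZ-CAMTA1 libraries were lowest, with replicate 2 below the other two. On the log2 scale the change was -0.77 ± 0.23 against Ctrl (limma adjusted p = 0.0334) and -0.78 ± 0.23 against TAZ4A (limma adjusted p = 0.0272). Leaving out TAZ-CAMTA1 replicate 2, they were -0.46 (limma adjusted p = 8.64e-05) and -0.47 (limma adjusted p = 5.64e-05), and without any one Ctrl or TAZ4A library the call against Ctrl was lost (adjusted p up to 0.101). The call against TAZ4A was lost without any one TAZ4A library (adjusted p up to 0.0826). Rspo3, the R-spondin of the set, had 2 reads in all 9 libraries together.

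Frizzled receptors had 8 genes in the set, 6 of them tested. Fzd6 (chr15:39006280-39038190), which in mice is known for orienting hair follicles through the planar polarity branch, had 3.64, 2.45 and 3.75 CPM in TAZ-CAMTA1, 7.65, 7.87 and 7.55 CPM in TAZ4A-labelled, and 13.6, 11.6 and 14.1 CPM in Ctrl libraries. The 3 groups were separate, with TAZ4A-labelled libraries between the others. The fitted change on the log2 scale was -0.73 ± 0.15 for TAZ4A against Ctrl (limma adjusted p = 0.00735), -1.86 ± 0.15 for TAZ-CAMTA1 against Ctrl (limma adjusted p = 5.82e-05) and -1.13 ± 0.15 for TAZ-CAMTA1 against TAZ4A (limma adjusted p = 0.000538). All 3 calls held in the 22 alternatives of each.

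Fzd7 had 17.1, 13.4 and 15.8 CPM in TAZ-CAMTA1, 11.5, 12.3 and 12.1 CPM in TAZ4A-labelled, and 16.3, 17.9 and 17.1 CPM in Ctrl libraries. TAZ4A-labelled libraries were lowest, and TAZ-CAMTA1 and Ctrl libraries overlapped. As a log2 fold change this was -0.49 ± 0.10 for TAZ4A against Ctrl (limma adjusted p = 0.00673) and 0.35 ± 0.10 for TAZ-CAMTA1 against TAZ4A (limma adjusted p = 0.02499). The second call was lost without any one TAZ4A library and without TAZ-CAMTA1 replicate 1 or 3 (adjusted p up to 0.266), and on TPM values neither call was made.

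Fzd5 had 17.8, 10.6 and 19.4 CPM in TAZ-CAMTA1, 24.7, 26.1 and 22.0 CPM in TAZ4A-labelled, and 24.2, 22.8 and 24.2 CPM in Ctrl libraries. TAZ-CAMTA1 libraries lay below the rest, replicate 2 most so. The log2 fold change was -0.60 ± 0.20 against Ctrl (limma adjusted p = 0.0478) and -0.63 ± 0.20 against TAZ4A (limma adjusted p = 0.0362). Both were lost without any single Ctrl or TAZ4A library (adjusted p up to 0.126), while without TAZ-CAMTA1 replicate 2 they were -0.34 (limma adjusted p = 0.00107) and -0.37 (limma adjusted p = 0.000536).

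Fzd2 had 11.98, 18.5 and 12.1 CPM in TAZ-CAMTA1, 11.9, 11.4 and 10.9 CPM in TAZ4A-labelled, and 9.61, 8.34 and 9.06 CPM in Ctrl libraries. TAZ-CAMTA1 replicate 2 was the highest of the 9 libraries. Its log2 fold change was 0.60 ± 0.16 for TAZ-CAMTA1 against Ctrl (limma adjusted p = 0.0209), and 0.40 without that library (limma adjusted p = 0.000643). It was lost without Ctrl replicate 2 or 3 (adjusted p up to 0.0762). Fzd2 was also called higher in TAZ4A than in Ctrl without TAZ-CAMTA1 replicate 2 (0.33, limma adjusted p = 0.00149).

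Fzd4, the receptor of the retinal vessel ligand Norrin, and Fzd8 were not called in any comparison with all 9 libraries. Fzd4 averaged 18.2 ± 7.10 CPM in TAZ-CAMTA1, 17.1 ± 0.756 CPM in TAZ4A-labelled and 21.1 ± 3.83 CPM in Ctrl libraries. TAZ-CAMTA1 replicate 2 had 10.1 CPM of Fzd4, where the others of its group had 23.2 and 21.4 CPM. Fzd8 averaged 5.80 ± 0.272, 7.05 ± 0.302 and 6.30 ± 0.614 CPM in TAZ-CAMTA1, TAZ4A-labelled and Ctrl libraries. Without that library Fzd4 was called higher in TAZ-CAMTA1 than in TAZ4A (0.37, limma adjusted p = 0.0119) and lower in TAZ4A than in Ctrl (-0.28, limma adjusted p = 0.0307), and Fzd8 lower in TAZ-CAMTA1 than in TAZ4A (-0.30, limma adjusted p = 0.0163). Per length, Fzd4 had the largest mean share of the Frizzled pool in each group, at 28.4% ± 8.54 in TAZ-CAMTA1, 26.1% ± 1.38 in TAZ4A-labelled and 28.1% ± 3.39 in Ctrl libraries. Fzd6 took 4.63% ± 0.534, 10.4% ± 0.201 and 15.6% ± 0.594 of it in TAZ-CAMTA1, TAZ4A-labelled and Ctrl libraries. Fzd2 took 23.8% ± 9.48, 17.6% ± 0.427 and 12.2% ± 0.387 in the same order of groups. In TAZ-CAMTA1 replicate 2 Fzd2 had the larger share, 34.7% against 18.6% for Fzd4, and the lowest Fzd2 share in that group was 17.97%. The pool came to 40.1 ± 9.02, 44.9 ± 1.06 and 49.4 ± 4.13 summed TPM in TAZ-CAMTA1, TAZ4A-labelled and Ctrl libraries.

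The co-receptors Lrp5 and Lrp6 and the kinase-like receptor Ryk were not called with all 9 libraries. Lrp5 had 346.7, 197.6 and 354.5 CPM in TAZ-CAMTA1 libraries, and averaged 254 ± 12.8 CPM in TAZ4A-labelled and 291 ± 15.0 CPM in Ctrl libraries. Lrp6 had 272, 115 and 269.9 CPM in TAZ-CAMTA1 libraries, and averaged 247 ± 3.74 CPM in TAZ4A-labelled and 227 ± 14.2 CPM in Ctrl libraries. In both genes TAZ-CAMTA1 replicate 2 was the lowest of the 9 libraries and the other TAZ-CAMTA1 libraries were the highest. Without replicate 2 both were called higher in TAZ-CAMTA1 than in Ctrl, by 0.27 for Lrp5 (limma adjusted p = 0.000478) and 0.26 for Lrp6 (limma adjusted p = 0.000459), where the fit of 9 libraries gave -0.0045 and -0.15. Both were then also called higher than in TAZ4A, and TAZ4A against Ctrl was called lower for Lrp5 (-0.20, limma adjusted p = 0.00272) and higher for Lrp6 (0.13, limma adjusted p = 0.0276). Ryk averaged 75.6 ± 2.73 CPM in TAZ-CAMTA1, 83.9 ± 1.15 CPM in TAZ4A-labelled and 74.9 ± 2.89 CPM in Ctrl libraries. Without replicate 2 it was called higher in TAZ4A than in Ctrl (0.16, limma adjusted p = 0.0062) and lower in TAZ-CAMTA1 than in TAZ4A (-0.18, limma adjusted p = 0.00707).

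Among the members, Ryk and Axin1 had enough reads at alternative junctions to be compared, and Ryk is described, a choice made after its values were seen. Its transcripts use either of a pair of acceptor sites at exon 8, which differ by 9 bases and hence by 3 codons. The reference sequences across the exon 7 to 8 junction (GENCODE vM21 on GRCm38, chr9, plus strand, 24 bases on either side) are shown with the additional bases of Ryk-203 in capitals.
Ryk-203: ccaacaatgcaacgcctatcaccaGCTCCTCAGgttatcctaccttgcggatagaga
Ryk-201: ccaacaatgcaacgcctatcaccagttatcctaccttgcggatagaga

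Junction reads for the longer form were 41.6% ± 3.52 of both forms in TAZ-CAMTA1, 56.3% ± 9.13 in TAZ4A-labelled and 46.1% ± 8.45 in Ctrl libraries (SD, n = 3 each). TAZ-CAMTA1 and TAZ4A-labelled libraries did not overlap, from at least 37 reads per library. The two-sided exact permutation test gave p = 0.1 for TAZ-CAMTA1 against TAZ4A, p = 0.4 against Ctrl and p = 0.3 for TAZ4A against Ctrl, and 0.1 is the smallest p that 3 against 3 libraries allow. No difference in this choice was therefore shown.

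Of the 6 inhibitor genes, Dkk2 and Apcdd1 were tested. Dkk2 (chr3:132085292-132180304), a secreted protein that binds Lrp6, had 0.432, 0.201 and 0.480 CPM in TAZ-CAMTA1, 1.24, 1.32 and 1.04 CPM in TAZ4A-labelled, and 1.02, 1.35 and 1.54 CPM in Ctrl libraries. These levels rest on 31, 119 and 116 reads in TAZ-CAMTA1, TAZ4A-labelled and Ctrl libraries. TAZ-CAMTA1 libraries were below all others and the other groups overlapped. On the log2 scale the change was -1.05 ± 0.16 against Ctrl (limma adjusted p = 0.00166) and -0.98 ± 0.16 against TAZ4A (limma adjusted p = 0.00194), and both held in all 21 alternatives that measured the gene. Apcdd1, a membrane inhibitor that binds Wnt and Lrp proteins, averaged 8.54 ± 1.57, 6.89 ± 0.164 and 6.44 ± 0.314 CPM in TAZ-CAMTA1, TAZ4A-labelled and Ctrl libraries. It was not called (log2 fold change 0.37 ± 0.13 for TAZ-CAMTA1 against Ctrl, limma adjusted p = 0.0602), and it was called without TAZ-CAMTA1 replicate 2 (0.51, limma adjusted p = 0.000129).

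Among the cytoplasmic transducers, Dvl1 (chr4:155847412-155859303), a Dishevelled scaffold, had 79.0, 87.1 and 77.8 CPM in TAZ-CAMTA1, 56.6, 53.5 and 52.3 CPM in TAZ4A-labelled, and 84.6, 75.1 and 86.5 CPM in Ctrl libraries. TAZ4A-labelled libraries were lowest, and the other groups overlapped. The fitted change on the log2 scale was -0.59 ± 0.08 for TAZ4A against Ctrl (limma adjusted p = 0.000928) and 0.58 ± 0.08 for TAZ-CAMTA1 against TAZ4A (limma adjusted p = 0.000844), both kept in 22 alternatives. Dvl2 averaged 23.4 ± 2.48, 22.6 ± 2.17 and 28.0 ± 0.614 CPM, and Dvl3 averaged 7.55 ± 4.32, 9.57 ± 0.558 and 9.32 ± 1.16 CPM, in TAZ-CAMTA1, TAZ4A-labelled and Ctrl libraries, and neither was called. Without TAZ-CAMTA1 replicate 2, Dvl2 was called lower in TAZ-CAMTA1 than in Ctrl, by -0.30 on the log2 scale (limma adjusted p = 0.007965), and lower in TAZ4A than in Ctrl, by -0.31 (limma adjusted p = 0.002985). Dvl3 had 2.59 CPM in TAZ-CAMTA1 replicate 2, where the others of its group had 10.5 and 9.59 CPM.

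Nkd2, which binds Dishevelled and restrains the signal, averaged 0.780 ± 0.248, 0.949 ± 0.0242 and 0.4997 ± 0.145 CPM in TAZ-CAMTA1, TAZ4A-labelled and Ctrl libraries. It rose in TAZ4A against Ctrl by 0.54 ± 0.16 on the log2 scale (limma adjusted p = 0.0369). The call was lost in 7 of 21 alternatives, among them the GENCODE vM4 annotation and the removal of Ctrl replicate 1 or 3 or of any TAZ4A library (adjusted p up to 0.391).

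Of the genes of beta-catenin and its destruction complex, Ctnnb1 and Axin1 were abundant, Apc was less so and Axin2 was low. Ctnnb1 (chr9:120933400-120960507), beta-catenin itself, had the highest TPM of the 51 members in each group and had 1657, 1331 and 1724 CPM in TAZ-CAMTA1, 1147, 1117 and 1154 CPM in TAZ4A-labelled, and 1493, 1398 and 1473 CPM in Ctrl libraries. TAZ4A-labelled libraries were lowest, TAZ-CAMTA1 replicates 1 and 3 were highest, and TAZ-CAMTA1 replicate 2 lay below the Ctrl libraries. Without that library Ctnnb1 was called higher in TAZ-CAMTA1 than in Ctrl, by 0.22 on the log2 scale (limma adjusted p = 0.000512), where the fit of 9 libraries gave 0.10 (limma adjusted p = 0.461). The log2 fold change with 9 libraries was -0.35 ± 0.10 for TAZ4A against Ctrl (limma adjusted p = 0.0336) and 0.45 ± 0.10 for TAZ-CAMTA1 against TAZ4A (limma adjusted p = 0.00795). The fall in TAZ4A was lost without any one Ctrl or TAZ4A library, with equal library sums, with quantile normalization and on TPM values (adjusted p up to 0.247), and on TPM values the difference from TAZ4A was lost too (adjusted p = 0.136). Messenger RNA level says nothing of how much beta-catenin protein was stable.

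Axin1, the scaffold of the complex, had 85.9, 77.9 and 87.3 CPM in TAZ-CAMTA1, 104, 103 and 99.9 CPM in TAZ4A-labelled, and 88.3, 89.9 and 89.7 CPM in Ctrl libraries. TAZ4A-labelled libraries were highest. The log2 fold change was -0.29 ± 0.07 for TAZ-CAMTA1 against TAZ4A (limma adjusted p = 0.0108), lost without TAZ4A replicate 1 (adjusted p up to 0.0522). TAZ4A against Ctrl gave 0.20 ± 0.07 (limma adjusted p = 0.0720), which was called without TAZ-CAMTA1 replicate 2 (limma adjusted p = 0.000857).

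Axin2, a scaffold that is also a standard readout of beta-catenin signalling, was low, at 0.494, 0.437 and 0.480 CPM in TAZ-CAMTA1, 0.929, 0.556 and 0.675 CPM in TAZ4A-labelled, and 0.418, 0.389 and 0.470 CPM in Ctrl libraries. TAZ4A-labelled libraries were highest, replicate 1 most so. The rise in TAZ4A against Ctrl was 0.39 ± 0.12 on the log2 scale (limma adjusted p = 0.0494). It was lost in 13 of 21 alternatives, including the removal of any Ctrl library, of TAZ4A replicate 1 or 3, or of TAZ-CAMTA1 replicate 1 or 3 (adjusted p up to 0.902). Axin2 shares 209 exonic bases with Gm11670 on the opposite strand. Apc had 67.7, 26.2 and 68.1 CPM in TAZ-CAMTA1, and averaged 77.2 ± 2.69 CPM in TAZ4A-labelled and 84.9 ± 10.5 CPM in Ctrl libraries, with no call from 9 libraries. Its log2 fold change for TAZ-CAMTA1 was -0.77 ± 0.33 against Ctrl (limma adjusted p = 0.108) and -0.64 ± 0.33 against TAZ4A (limma adjusted p = 0.157). With TAZ-CAMTA1 replicate 2 left out, these were -0.31 (limma adjusted p = 0.00219) and -0.18 (limma adjusted p = 0.0467), both called lower.

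The TCF/LEF pool held Tcf7l1, mainly a repressor of Wnt targets, and Tcf7l2, while Tcf7 and Lef1 had 17 and 3 reads over all libraries. Tcf7l1 (chr6:72626371-72789045) had 26.6, 29.1 and 30.3 CPM in TAZ-CAMTA1, 17.1, 17.3 and 17.6 CPM in TAZ4A-labelled, and 26.4, 23.9 and 24.6 CPM in Ctrl libraries. The groups did not overlap, and TAZ4A-labelled libraries were lowest. Its log2 fold change was -0.51 ± 0.08 for TAZ4A against Ctrl (limma adjusted p = 0.00141) and 0.71 ± 0.08 for TAZ-CAMTA1 against TAZ4A (limma adjusted p = 0.000186), both kept in 22 alternatives. TAZ-CAMTA1 against Ctrl gave 0.19 (limma adjusted p = 0.0879), and 0.18 without TAZ-CAMTA1 replicate 2, which was called (limma adjusted p = 0.0350). Tcf7l2 had 20.7, 21.3 and 22.8 CPM in TAZ-CAMTA1, 19.6, 20.4 and 19.9 CPM in TAZ4A-labelled, and 24.5, 24.1 and 22.5 CPM in Ctrl libraries. TAZ4A-labelled libraries were lowest. Its log2 fold change of -0.24 ± 0.07 for TAZ4A against Ctrl (limma adjusted p = 0.0434) was lost in 12 of 22 alternatives, including the removal of any Ctrl or TAZ4A library (adjusted p up to 0.290).

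The other 22 members were under the level filter, and none exceeded 0.368 CPM in any library. They are the ligands Wnt1, Wnt2, Wnt2b, Wnt3, Wnt4, Wnt5b, Wnt8a, Wnt8b, Wnt10a, Wnt10b and Wnt11, the R-spondin Rspo3, the receptors Fzd1, Fzd9 and Ror1, the inhibitors Dkk1, Dkk3, Sfrp1 and Sfrp5, and Nkd1, Tcf7 and Lef1. They had 1 to 35 reads in all 9 libraries together, 18 of them fewer than 20 and 6 a single read. Ror1, a receptor of Wnt5a, had 0, 0 and 1 read in TAZ-CAMTA1, 7, 8 and 12 reads in TAZ4A-labelled, and 0, 1 and 0 reads in Ctrl libraries. The TAZ4A-labelled libraries were the only ones with more than 1 read. The ratio of 27 TAZ4A-labelled reads to 1 Ctrl read was 23.7 after depth adjustment, with a 95% counting interval of 3.90 to 969.6, and the ratio of 1 TAZ-CAMTA1 read to 27 was 0.0431 (0.00105 to 0.262). Of the Ror1 reads, 13 in TAZ4A-labelled libraries crossed annotated splice junctions and 0 did elsewhere. The authors' deposited table lists Ror1 with a log2 fold change of 4.15 for TAZ4A against Ctrl (false discovery rate 1.0297e-05). Wnt3 had 3, 4 and 5 reads in TAZ-CAMTA1, 3, 4 and 2 in TAZ4A-labelled, and 0, 2 and 0 in Ctrl libraries. The ratio of 12 TAZ-CAMTA1 reads to 2 Ctrl reads was 6.13 after depth adjustment, with a 95% counting interval of 1.36 to 56.4. Ratios were taken only where 1 group had at most 3 reads and the other at least 12. An interval away from 1 was therefore built in and carries no test. The intervals pool the libraries of a group and cover counting error only.

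Reads across annotated introns gave a separate count from the same libraries, a part of the reads already counted per gene. With at least 10 such reads in both groups, 7 called members could be followed in TAZ4A against Ctrl, 6 in TAZ-CAMTA1 against Ctrl and 9 in TAZ-CAMTA1 against TAZ4A. Junction reads moved the same way as gene reads in each of these. Fzd6 had 0.695 ± 0.194 RPM, junction reads scaled to equal totals of unique junction reads, in TAZ-CAMTA1, 2.36 ± 0.501 in TAZ4A-labelled and 3.18 ± 0.463 in Ctrl libraries (SD, n = 3 each). TAZ-CAMTA1 libraries did not overlap either of the other groups (two-sided exact permutation p = 0.1 in both cases, the smallest possible). Lgr4 had 1.26 ± 1.08 RPM in TAZ-CAMTA1, 4.04 ± 0.639 in TAZ4A-labelled and 2.87 ± 0.379 in Ctrl libraries, again with TAZ-CAMTA1 lowest (two-sided exact permutation p = 0.1 against each). Axin2, with too few reads to be followed, had 8 junction reads in TAZ-CAMTA1, 12 in TAZ4A-labelled and 1 in Ctrl libraries. TAZ4A-labelled replicates 1 to 3 had 8, 2 and 2 of them. By junction reads TAZ-CAMTA1 lay near TAZ4A-labelled libraries, at 0.357 and 0.421 RPM, with Ctrl at 0.0344 RPM. By gene reads it lay near Ctrl instead, at 0.470 and 0.426 CPM.

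TAZ-CAMTA1 replicate 2 had few junction reads in several long members. Its Apc junctions had 0.269 RPM, where TAZ-CAMTA1 replicates 1 and 3 had 13.4 and 11.1. For Lrp6 it had 15.5 RPM, where they had 129 and 136. For Ryk it had 100.5 RPM, where they had 101 and 97.8. In this library 30.6% of junction reads mapped to more than 1 place, against 20.8% to 22.2% in the others. The part of this library in the differences of Apc, Lrp6 and Dvl3 was not tested beyond leaving it out.

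**Figure D5:**
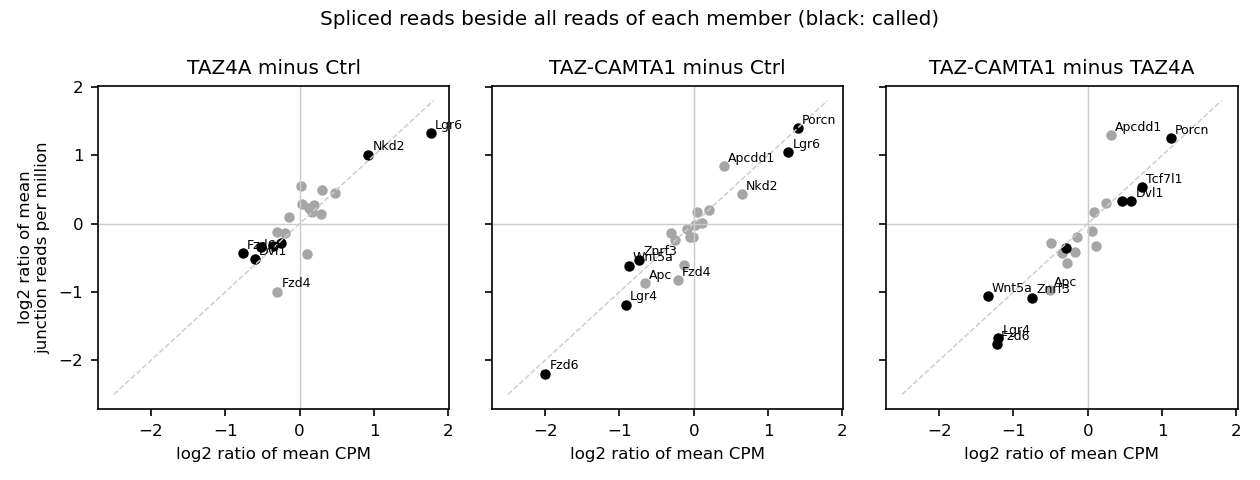
Log2 ratio of mean junction RPM (y axis) against log2 ratio of mean CPM (x axis) for members with at least 10 junction reads in both groups, 20 per panel; black points are called members, the dashed line marks equal ratios. All called members lie in the quadrants of equal sign, and Fzd6 is the lowest point in TAZ-CAMTA1 minus Ctrl.

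Another 6 lists of pathway genes were described by their counts of called genes, beside 13.2% rising and 11.7% falling of all genes in TAZ4A against Ctrl, 16.8% and 15.3% in TAZ-CAMTA1 against Ctrl, and 19.4% and 18.5% in TAZ-CAMTA1 against TAZ4A. The shares of all genes without TAZ-CAMTA1 replicate 2 were 28.1% and 30.3%, 28.5% and 32.3%, and 30.8% and 32.2%. Some genes, among them Prickle1, Ppard and Bambi, are in more than 1 list, so the lists are not separate observations. Of 10 tested genes for Wnt secretion and extracellular control, 4 rose and 0 fell in TAZ4A-labelled against Ctrl libraries, with a median log2 fold change of 0.47. In TAZ-CAMTA1, 4 rose and 2 fell against Ctrl (median 0.25), and 3 were higher and 3 lower against TAZ4A (median -0.24). Counts in these comparisons without TAZ-CAMTA1 replicate 2 were 6 and 3, 6 and 3, and 4 and 4, beside 28.1% to 32.3% of all genes in each direction. Gpc4, a glypican that holds ligands at the surface, averaged 20.8 ± 1.56 CPM in TAZ-CAMTA1, 76.6 ± 1.88 in TAZ4A-labelled and 11.9 ± 0.428 in Ctrl libraries. It rose in both against Ctrl, by 0.78 ± 0.08 on the log2 scale in TAZ-CAMTA1 (limma adjusted p = 0.000160) and by 2.63 ± 0.08 in TAZ4A (limma adjusted p = 9.69e-08). Gpc6 averaged 2.56 ± 0.707, 11.6 ± 0.180 and 3.67 ± 0.469 CPM in TAZ-CAMTA1, TAZ4A-labelled and Ctrl libraries, and rose in TAZ4A against Ctrl (1.55 ± 0.17, limma adjusted p = 0.000276). Tspan12, which helps Fzd4 respond to Norrin, averaged 4.75 ± 1.07, 5.76 ± 0.429 and 2.41 ± 0.280 CPM in the same groups and rose in both against Ctrl.

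In TAZ-CAMTA1 libraries this list had 4 rises and 2 falls against Ctrl, with a median of 0.25. Against TAZ4A it had 3 higher and 3 lower genes, with a median of -0.24. Of all genes, 16.8% rose and 15.3% fell in the first of these comparisons, and 19.4% and 18.5% in the second. Frzb, a secreted inhibitor that binds ligands, averaged 44.9 ± 2.78 CPM in TAZ-CAMTA1, 116 ± 2.89 in TAZ4A-labelled and 61.5 ± 2.04 in Ctrl libraries. It fell in TAZ-CAMTA1 against Ctrl (-0.45 ± 0.07, limma adjusted p = 0.00190) and was lower than in TAZ4A (-1.36 ± 0.07, limma adjusted p = 3.14e-06). Wls, which carries finished ligands to the surface, averaged 206 ± 26.3 CPM in TAZ-CAMTA1 and 255 ± 6.91 in Ctrl libraries (-0.31 ± 0.10, limma adjusted p = 0.0387). Gpr124, the Wnt7 co-receptor of brain vessels, averaged 176 ± 31.0 CPM in TAZ-CAMTA1, 110 ± 1.52 in TAZ4A-labelled and 132 ± 4.18 in Ctrl libraries, and its rise against Ctrl was 0.40 ± 0.12 (limma adjusted p = 0.0378).

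Of 24 tested genes that control beta-catenin breakdown, 1 rose and 2 fell in TAZ4A against Ctrl (median 0.06), 3 rose and 0 fell in TAZ-CAMTA1 against Ctrl (median -0.06), and 1 was higher and 1 lower in TAZ-CAMTA1 against TAZ4A (median -0.0037). With TAZ-CAMTA1 replicate 2 removed, these were 5 and 8, 8 and 5, and 4 and 3. Shares of all genes called in each direction were 28.1% to 32.3% without that library, and 11.7% to 19.4% with all 9 libraries. Csnk1e, a casein kinase that acts on Dishevelled, averaged 134 ± 8.32, 135 ± 2.72 and 98.8 ± 1.89 CPM in TAZ-CAMTA1, TAZ4A-labelled and Ctrl libraries and rose in both against Ctrl. Ppp2r5a, a phosphatase subunit, averaged 301 ± 14.3, 167 ± 2.501 and 282 ± 2.94 CPM in the same groups and fell in TAZ4A against Ctrl (-0.75 ± 0.06, limma adjusted p = 5.08e-05).

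Of 22 tested nuclear cofactors and repressors, 1 rose and 6 fell in TAZ4A against Ctrl (median -0.21), 3 rose and 4 fell in TAZ-CAMTA1 against Ctrl (median 0.04), and 8 were higher and 2 lower in TAZ-CAMTA1 against TAZ4A (median -0.05, of the opposite sign to the balance of calls). Without TAZ-CAMTA1 replicate 2 the counts were 5 and 13, 9 and 9, and 8 and 4, against 28.1% to 32.3% of all genes. Beside the counts from all 9 libraries stand 11.7% to 19.4% of all genes in each direction. Sox18, an endothelial transcription factor, averaged 150 ± 31.2 CPM in TAZ-CAMTA1, 23.5 ± 0.529 in TAZ4A-labelled and 111 ± 10.7 in Ctrl libraries, and fell in TAZ4A against Ctrl (-2.22 ± 0.14, limma adjusted p = 9.92e-06). Sox7 averaged 352 ± 39.8, 205 ± 1.87 and 148 ± 9.56 CPM in TAZ-CAMTA1, TAZ4A-labelled and Ctrl libraries, and its rises against Ctrl were 1.24 ± 0.10 in TAZ-CAMTA1 (limma adjusted p = 4.50e-05) and 0.47 ± 0.10 in TAZ4A (limma adjusted p = 0.00735). Of the Groucho-type co-repressors, Tle6 averaged 19.1 ± 4.80 CPM in TAZ-CAMTA1, 7.68 ± 0.325 in TAZ4A-labelled and 6.68 ± 0.321 in Ctrl libraries, and rose in TAZ-CAMTA1 against Ctrl (1.42 ± 0.15, limma adjusted p = 0.000272). Tle2 averaged 4.13 ± 0.651, 1.21 ± 0.103 and 1.85 ± 0.140 CPM in the same groups, and Tle4 fell in TAZ-CAMTA1 against Ctrl (-0.50 ± 0.13, limma adjusted p = 0.0164).

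Of 17 tested general targets of beta-catenin and TCF, 8 rose (47.1%) and 3 fell in TAZ4A against Ctrl (median 0.39). In TAZ-CAMTA1, 3 rose and 6 fell against Ctrl (median 0.05), and 1 was higher and 7 lower (41.2%) against TAZ4A (median -0.23). Leaving out TAZ-CAMTA1 replicate 2, these counts were 11 and 4, 8 and 8, and 4 and 9, with 28.1% to 32.3% of all genes called. From all 9 libraries, 13.2% of all genes rose and 11.7% fell in TAZ4A against Ctrl. The shares were 16.8% and 15.3% in TAZ-CAMTA1 against Ctrl, and 19.4% and 18.5% against TAZ4A. Cd44, an adhesion receptor, averaged 233 ± 30.6 CPM in TAZ-CAMTA1, 498 ± 13.2 in TAZ4A-labelled and 232 ± 4.01 in Ctrl libraries, a rise of 1.10 ± 0.10 in TAZ4A against Ctrl (limma adjusted p = 6.97e-05). Nrcam, a cell adhesion molecule, averaged 3.26 ± 0.458, 12.7 ± 0.873 and 4.58 ± 0.771 CPM in TAZ-CAMTA1, TAZ4A-labelled and Ctrl libraries, a rise of 1.39 ± 0.14 in TAZ4A against Ctrl (limma adjusted p = 0.000147). Jag1, a Notch ligand, averaged 52.7 ± 1.03 CPM in TAZ4A-labelled and 21.0 ± 1.18 in Ctrl libraries (1.31 ± 0.19, limma adjusted p = 0.00119). Id2 and Prickle1 fell in both groups against Ctrl. Many of these genes also respond to other pathways.

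Of 11 tested genes of the brain endothelial barrier, 7 rose (63.6%) and 2 fell in TAZ4A against Ctrl (median 0.62), 3 rose and 3 fell in TAZ-CAMTA1 against Ctrl (median -0.19), and 3 were higher and 6 lower in TAZ-CAMTA1 against TAZ4A (median -0.41). With TAZ-CAMTA1 replicate 2 removed, the counts for TAZ-CAMTA1 against Ctrl were 5 and 5, and those for TAZ4A against Ctrl were again 7 and 2. Beside them, 28.1% to 32.3% of all genes were called in each direction. All 9 libraries gave 13.2% of all genes rising and 11.7% falling in TAZ4A against Ctrl. The shares were 16.8% and 15.3% in TAZ-CAMTA1 against Ctrl, and 19.4% and 18.5% against TAZ4A. Slc2a1, the glucose transporter of that barrier, averaged 1087 ± 53.0 CPM in TAZ-CAMTA1, 399 ± 4.89 in TAZ4A-labelled and 486 ± 15.4 in Ctrl libraries. It rose in TAZ-CAMTA1 (1.16 ± 0.07, limma adjusted p = 8.35e-06) and fell in TAZ4A (-0.28 ± 0.07, limma adjusted p = 0.0144), both against Ctrl. Plvap, which marks leaky vessels and is repressed as the barrier forms, averaged 539 ± 134 CPM in TAZ-CAMTA1, 278 ± 13.0 in TAZ4A-labelled and 601 ± 17.9 in Ctrl libraries and fell in TAZ4A against Ctrl (-1.11 ± 0.15, limma adjusted p = 0.000883). Itm2a averaged 15.2 ± 1.22, 14.4 ± 0.910 and 4.76 ± 0.227 CPM in TAZ-CAMTA1, TAZ4A-labelled and Ctrl libraries and rose in both against Ctrl. Tfrc, the transferrin receptor, rose in TAZ4A (0.75 ± 0.19, limma adjusted p = 0.0205) and fell in TAZ-CAMTA1 (-0.87 ± 0.19, limma adjusted p = 0.00904) against Ctrl. Cldn5, a core junction protein of the barrier, was at or near 0 in every group.

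Of 33 tested genes of the planar polarity and other beta-catenin-independent branch, 1 rose and 10 fell (30.3%) in TAZ4A against Ctrl (median -0.13), 5 rose and 7 fell in TAZ-CAMTA1 against Ctrl (median -0.08), and 9 were higher (27.3%) and 3 lower in TAZ-CAMTA1 against TAZ4A (median 0.05). Without TAZ-CAMTA1 replicate 2 these were 4 and 19, 12 and 13, and 18 and 4, beside 28.1% to 32.3% of all genes. Using all 9 libraries, 13.2% of all genes rose and 11.7% fell in TAZ4A against Ctrl. The shares were 16.8% and 15.3% in TAZ-CAMTA1 against Ctrl, and 19.4% and 18.5% against TAZ4A. Prickle1, a core planar polarity protein, averaged 20.9 ± 3.37 CPM in TAZ-CAMTA1, 24.3 ± 1.13 in TAZ4A-labelled and 64.4 ± 2.70 in Ctrl libraries. It fell by 1.62 on the log2 scale in TAZ-CAMTA1 (limma adjusted p = 3.53e-05) and by 1.39 in TAZ4A (limma adjusted p = 5.29e-05), both against Ctrl. Celsr1, a polarity cadherin, averaged 0.249 ± 0.0997, 0.232 ± 0.0682 and 1.41 ± 0.112 CPM in TAZ-CAMTA1, TAZ4A-labelled and Ctrl libraries and fell in both against Ctrl. Prickle3 averaged 10.3 ± 0.963, 2.72 ± 0.532 and 5.96 ± 0.446 CPM in the same groups and was higher in TAZ-CAMTA1 than in TAZ4A by 1.75 ± 0.13 (limma adjusted p = 2.82e-05). Camk2a, a calcium-dependent kinase, averaged 3.24 ± 0.693 CPM in TAZ-CAMTA1, 0.435 ± 0.218 in TAZ4A-labelled and 0.332 ± 0.0869 in Ctrl libraries. Its change in TAZ-CAMTA1 against Ctrl was 2.16 ± 0.20 (limma adjusted p = 0.000120). As Camk2a passed the level filter only through TAZ-CAMTA1 libraries and Celsr1 only through Ctrl libraries, their calls are descriptions and add no support.

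Markers of other cell types were not equal between groups. Summed over 8 fibroblast markers, levels were 9.10 to 14.4 CPM in TAZ-CAMTA1, 15.2 to 16.8 CPM in TAZ4A-labelled and 3.95 to 5.48 CPM in Ctrl libraries, with 2, 3 and 2 markers over 1 CPM and Lum and Dpt near 0 throughout. Summed over 8 pericyte and smooth muscle markers they were 5.37 to 6.54 CPM, 12.3 to 13.9 CPM and 2.54 to 3.16 CPM in the same groups, with 1, 2 and 1 markers over 1 CPM and Rgs5 and Tagln near 0. Cnn1, of smooth muscle, averaged 7.25 CPM and Dcn, of fibroblasts, 2.04 CPM in TAZ4A-labelled libraries, and both were near 0 in the other groups. Most of the fibroblast sum was Pdgfra, at 7.19, 9.03 and 2.95 CPM, and Col3a1, at 3.39, 4.21 and 1.22 CPM, in TAZ-CAMTA1, TAZ4A-labelled and Ctrl libraries. Col1a1 had the same order of groups at under 1 CPM, while Col1a2 and Thy1 were highest in TAZ-CAMTA1 libraries, at 0.447 and 0.0660 CPM. Epithelial and pancreatic markers summed to 21.1 to 49.6 CPM in TAZ-CAMTA1, 28.0 to 30.2 CPM in TAZ4A-labelled and 20.8 to 24.1 CPM in Ctrl libraries. Krt18, the most abundant of them, averaged 30.1, 19.3 and 22.3 CPM, and Krt19 averaged 1.31, 9.05 and 0.501 CPM, in TAZ-CAMTA1, TAZ4A-labelled and Ctrl libraries, while Cdh1 was near 0. The 6 leukocyte markers in the table summed to 463 to 714 CPM in TAZ-CAMTA1, 397 to 405 CPM in TAZ4A-labelled and 453 to 525 CPM in Ctrl libraries. Most of this was Cd68, a lysosomal protein, at 563, 398 and 488 CPM in the same groups. Lyz2, a lysozyme of myeloid cells, averaged 6.83 CPM in TAZ-CAMTA1, 1.45 CPM in TAZ4A-labelled and 0.0104 CPM in Ctrl libraries. Cd14 was highest in Ctrl libraries, at 1.34, 0.999 and 1.64 CPM in TAZ-CAMTA1, TAZ4A-labelled and Ctrl libraries. Ptprc, the pan-leukocyte marker, was at most 0.0918 CPM in a group. The fibroblast sum and the pericyte and smooth muscle sum had the order TAZ4A-labelled, TAZ-CAMTA1 and Ctrl, as Wnt7b and Lgr6 did. The second sum had it through Cnn1. Pdgfrb averaged 5.19, 4.30 and 2.49 CPM in TAZ-CAMTA1, TAZ4A-labelled and Ctrl libraries. Cspg4 and Tagln were likewise highest in TAZ-CAMTA1 libraries, while Acta2, Myh11 and Des were highest in TAZ4A-labelled ones. Wnt7a and Ror1 shared with Cnn1 and Dcn a level near 0 outside TAZ4A-labelled libraries. The part of the markers in these members was not tested.

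The authors' deposited table, at a false discovery rate under 0.05, lists 7 members higher and 4 lower in TAZ4A against Ctrl, 6 and 6 in TAZ-CAMTA1 against Ctrl, and 5 and 9 in TAZ-CAMTA1 against TAZ4A. Of the calls made here with limma, 8 of 11, 10 of 10 and 13 of 15 were also in that table. Those made only here were Axin2, Ctnnb1 and Tcf7l2 in TAZ4A against Ctrl, and Axin1 and Fzd7 in TAZ-CAMTA1 against TAZ4A. Members listed only there, Fzd1, Ror1, Tcf7 and Wnt3, were under the level filter used here. Exons of Ctnnb1, Dvl1, Dvl2, Fzd5, Fzd6, Tcf7l1, Wnt5a and Wnt7b overlap a gene on the opposite strand, by 36 bases in Dvl1 and 1233 bases in Fzd5 for example. Whether counting used strand is not given in the sources used here, so reads of these pairs cannot be told apart.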

How the data were processed

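Poly-A RNA of 9 MS1 samples was prepared with a stranded Illumina kit, per the labels. Per the submitters' processing notes, bcl2fastq, FastQC, STAR, featureCounts and edgeR were used on mm10; versions and the strand setting are not given in the sources used here. The members and the gene lists were chosen with earlier results of these data known.

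The deposited gene values are a signal, reads divided by the authors' scaled library size, which they call CPM. A library's sum ranged from 976997 to 1028367. All values were whole multiples of 1 read (100% within a tolerance of 0.01), so whole read counts were recovered from the deposited values, 21966004 to 34224715 per library. Deposited TPM values, scaled for length by the authors, served for levels between genes and as an alternative. The deposited junction files hold the authors' STAR counts of unique junction reads, 6410070 to 9889541 per library. From the deposited comparison table, the log2 fold changes and adjusted p-values of the authors are quoted only as theirs. The design assumed CPM, and the test stayed as planned although the sums differ.

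Genes were tested with limma-trend (limma 3.58.1, R 4.3.3, robust) on log2(CPM + 0.5) of all 9 libraries, 6 residual degrees of freedom, with a level filter of 0.5 CPM reached by 3 or more libraries, Benjamini-Hochberg over 12350 genes. Such fold changes understate the change of low genes, and the median SE was 0.135. The fit was tested on simulated data. Junctions, matched to GENCODE vM21 introns, entered a two-sided permutation test (exact). Promoter windows are from RefSeq (GRCm38.p6), and junction sequences from GENCODE vM21 transcripts.

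Called members are named. Those with a mean of at least 1 CPM in a group have their value in every library. From each list, named genes came from the 3 largest called rises and 3 largest called falls of each comparison, at a mean of at least 1 CPM in the higher group. Alternatives were pseudocounts of 0.1 and 2, no filter, a minimum of 2 CPM, equal library sums, quantile normalization, TPM, the GENCODE vM4 table, the 6 compared libraries alone, a replicate block, library weights, each library left out, and edgeR 4.0.16 and DESeq2 1.42.0 on the recovered reads.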

Additional observations from a re-analysis of the deposited data

How the results depend on the processing

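Of the 36 calls on members, 20 were kept in every alternative that measured the gene, and none changed direction. With a Ctrl or TAZ4A library left out 25 to 28 were kept, on TPM values 26 and with the 6 libraries alone 28. Counts that moved by over 1.5 times were as follows. Genes called numbered 3077 in TAZ4A against Ctrl, but 7233 with the 6 libraries alone, 7432 with library weights and 2101 to 7206 with a library left out. In TAZ-CAMTA1 against Ctrl they numbered 3966, but 2445, 7255 and 2626 to 7516 under the same settings. In TAZ-CAMTA1 against TAZ4A they numbered 4684, but 8272 with library weights and 3236 to 7779 with a library left out. Members higher in TAZ4A against Ctrl were 5, but 0 with a minimum of 2 CPM, 3 in the GENCODE vM4 table, 11 with the 6 libraries alone and 9 with library weights. Lower members were 6, but 3 on TPM values and 10 both with the 6 libraries alone and with library weights. In TAZ-CAMTA1 against Ctrl, the 4 higher members became 2 with a minimum of 2 CPM and 8 with library weights, and the 6 lower members became 3 with the 6 libraries alone. In TAZ-CAMTA1 against TAZ4A, the 9 lower members became 14 with library weights. With a library left out, higher and lower members ranged over 3 to 10 and 4 to 10 in TAZ4A against Ctrl, 2 to 9 and 3 to 8 in TAZ-CAMTA1 against Ctrl, and 4 to 10 and 6 to 12 in TAZ-CAMTA1 against TAZ4A. A minimum of 2 CPM leaves out Wnt7a, Wnt7b, Lgr6, Axin2, Nkd2, Porcn and Dkk2 by its construction, and the lower counts of higher members at that minimum follow from this. The cause of the other shifts was not tested.

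Among members not called, 7 values took the opposite sign and passed. Lrp5 in TAZ-CAMTA1 against Ctrl was 0.2547 with library weights and -0.15 to 0.2706 with a library left out. Lrp6 was 0.2479 and -0.3612 to 0.2602 under these settings in that comparison, and -0.4889 to 0.1326 against TAZ4A with a library left out. Fzd4 against TAZ4A was 0.3542 with library weights and -0.2137 to 0.3680 with a library left out. In each of these ranges the highest value is that without TAZ-CAMTA1 replicate 2. A further 47 values of 18 results changed sign with neither setting passing. For samples with the same replicate number, the correlations of their deviations from group means ranged from -0.12 to 0.52, all positive except the lowest. Those of samples with different numbers ranged from -0.53 to 0.56. These values do not settle whether samples were paired. With the replicate number as a block, 33 of the 36 calls were kept, and 2890, 3881 and 4619 genes were called in TAZ4A against Ctrl, TAZ-CAMTA1 against Ctrl and TAZ-CAMTA1 against TAZ4A. Depth limits the members under 0.5 CPM, where a count of 0 allows up to 0.0926 to 0.131 CPM in TAZ-CAMTA1 libraries.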
